A study of Bos taurus with 24 samples.

Results

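The miRNA miR-21 is listed in the deposited tables as its 2 arms, bta-miR-21-5p and bta-miR-21-3p. These 2 of the 796 miRNAs in each table were taken by their exact names in all 22 libraries. Mammary gland biopsies came from multiparous midlactation cows, 5 Holstein (HOLS) and 6 Montbéliarde (MONT). Each cow was sampled while it ate freely (CONT, day 0) and at the end of 6 days of feed restriction (REST, day 6), and per the paper's methods the biopsies alternated between the rear glands of the udder, with the side of each biopsy not given. The labels set the restriction at 60% of the net energy of lactation calculated beforehand, and the paper's methods give a lower share. One more HOLS cow stands in the labels and was not analysed here. A biopsy holds all cell types of the gland, so a change in the number of cells of a type and a change in RNA per cell cannot be told apart.

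MicroRNAs are cut from a hairpin precursor, which leaves a duplex of a 5p and a 3p strand. One strand is usually kept in the silencing complex, where it represses mRNAs that match its seed, while the other strand is mostly degraded. For miR-21 the 5p strand is the one known to be kept, and it is known to repress PDCD4, which restrains translation and cell growth. Its transcription is known to be raised by STAT3 and NF-kappaB, and it is abundant in macrophages and other leukocytes, in fibroblasts and in epithelium. In the RefSeq gene table for ARS-UCD2.0, a newer build than the one the reads were aligned to, the neighbours of MIR21 in gene order are VMP1, a gene of autophagy, and TUBD1, which encodes a tubulin. The order does not show whether these genes overlap. No other row of the tables had the counts of either arm.

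miR-21-5p was among the most abundant miRNAs of the gland in every library, and miR-21-3p was found in every library at a level lower by about 2 orders of magnitude. Neither arm passed the test between CONT and REST in either breed, nor between the breeds. Library totals ranged from 6087865 to 18913916 miRNA counts. The 5p arm had 112449 to 523461 counts per library and made up 2.40% ± 0.54 of all miRNA counts (SD, 22 libraries), from 1.74% to 3.98%. The 3p arm had 1037 to 3877 counts per library and made up 0.0161% ± 0.0039. Ordered by counts within a library, miR-21-5p ranked between 7 and 13 and miR-21-3p between 85 and 116.

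By the mean of CPM, the counts of a miRNA scaled to the same total of miRNA counts in every library, miR-21-5p ranked 10 with a mean of 23997 CPM. The miRNAs just above it were miR-26c, miR-27b and miR-126-5p, an arm of the endothelial miRNA, with means of 32818, 30822 and 25969 CPM. Those just below were miR-141, an epithelial miRNA of the miR-200 family, let-7a-5p and miR-181a, with means of 23203, 21886 and 21129 CPM. The order of these close neighbours changed between libraries, since miR-141 was above miR-21-5p in 14 of the 22 libraries and let-7a-5p in 8. miR-21-3p ranked 102 with a mean of 161 CPM. It lay between miR-342, with a mean of 162 CPM and above it in 12 libraries, and miR-1839, with a mean of 157 CPM and above it in 9.

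Levels given from here on are CPM further scaled by TMM factors over the 22 libraries, which correct for miRNAs that take an unequal share of a library. In HOLS CONT, miR-21-5p had 23631 CPM in cow 1155, 27398 in cow 1165, 21617 in cow 2182, 23326 in cow 8200 and 24124 in cow 9195. In HOLS REST the same cows had 30444, 30357, 20128, 20025 and 27734 CPM. The periods overlapped: 3 REST libraries were above every CONT library and 2 were below every one. In MONT CONT the lowest, median and highest of 6 libraries were 16764, 19301 and 37894 CPM. In MONT REST they were 15732, 22794 and 29478 CPM. The highest value of all was the CONT library of cow 1652, and the second highest in MONT CONT was cow 9615 with 30208 CPM.

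**Figure D1:**
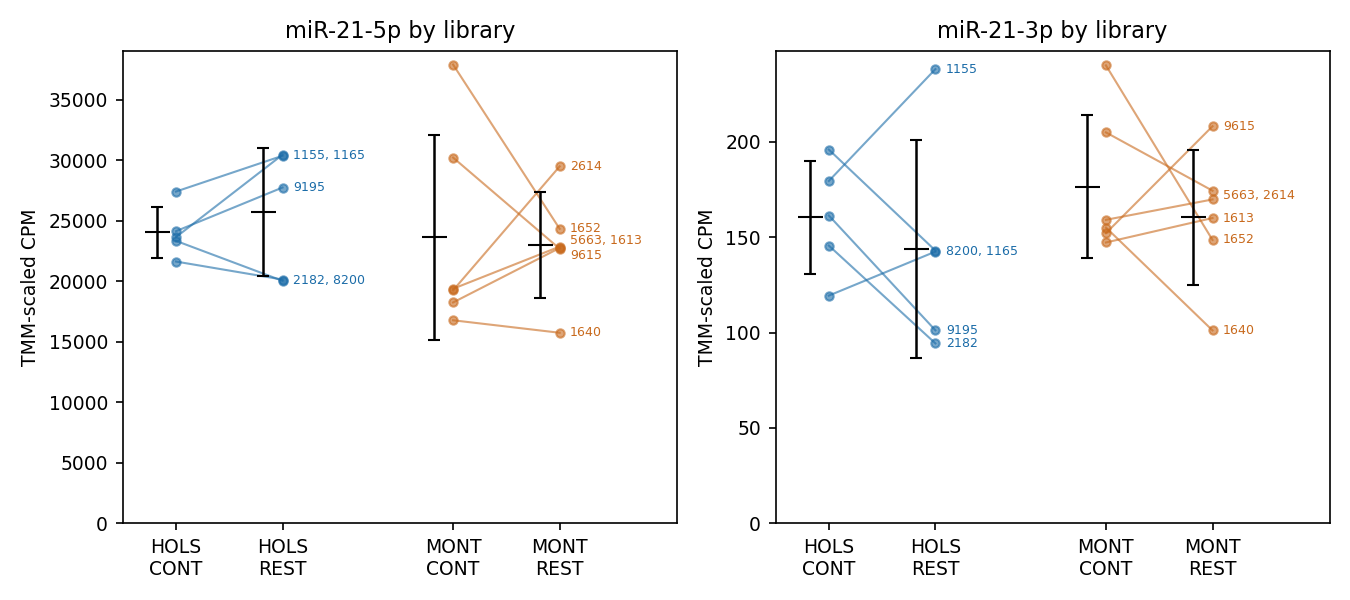
TMM-scaled CPM (vertical axis, from 0) of miR-21-5p (left) and miR-21-3p (right) in each library, by breed and period, with a line per cow and the cow number beside its REST value. Black bars are the mean and SD of each group. The groups overlap in both panels, and lines run upward in some cows and downward in others.

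Group means of miR-21-5p fell in the order HOLS REST, HOLS CONT, MONT CONT and MONT REST. They were 25737 ± 5282, 24019 ± 2111, 23617 ± 8491 and 22966 ± 4398 CPM (SD, n = 5 or 6). No neighbours in this order differed beyond their SD. The SD was 8.79% of the mean in HOLS CONT and 20.5% in HOLS REST, against 36.0% and 19.2% in the 2 periods of MONT.

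The passenger arm miR-21-3p had 179 CPM in HOLS CONT for cow 1155, 119 for cow 1165, 146 for cow 2182, 196 for cow 8200 and 161 for cow 9195. In HOLS REST the same cows had 238, 142, 94.3, 143 and 101 CPM. Cow 1155 had the highest HOLS value, and the 2 lowest HOLS values were REST libraries, of cows 2182 and 9195. In MONT CONT the lowest, median and highest were 147, 157 and 240.1 CPM, and in MONT REST 101, 165 and 208 CPM. The group means were 176 ± 37.6 CPM in MONT CONT, 160.3 ± 29.7 in HOLS CONT, 160.3 ± 35.3 in MONT REST and 144 ± 57.4 in HOLS REST (SD, n = 6, 5, 6 and 5). Again no neighbours in the order differed beyond their SD.

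The first comparison asks whether feed restriction changed the arms in HOLS. Per cow, miR-21-5p changed by 0.08 ± 0.24 on the log2 scale (SD, n = 5 cows), from -0.22 in cow 8200 to 0.37 in cow 1155, and was higher in REST in 3 of 5 cows. The fit within the breed, with TMM factors of the HOLS libraries alone, gave a log2 fold change of 0.16 with a 95% interval from -0.15 to 0.46 (adjusted p = 0.539, edgeR's quasi-likelihood test, Benjamini-Hochberg over 374 miRNAs). miR-21-3p changed by -0.22 ± 0.51 per cow, from -0.67 in cow 9195 to 0.41 in cow 1155, and was lower in 3 of 5 cows. Its fitted log2 fold change was -0.10 with an interval from -0.60 to 0.39 (adjusted p = 0.852, the same edgeR test). In this comparison 2.41% of the miRNAs tested passed, 23.3% had an unadjusted p under 0.05, and 16.3% passed with the cow as a block, with neither arm among them in either fit.

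In MONT, the change of miR-21-5p per cow was 0.0046 ± 0.47 on the log2 scale (SD, n = 6 cows), above 0 in 3 cows and below 0 in 3. It ran from -0.64 in cow 1652 to 0.62 in cow 2614, a wider range than in HOLS. The fitted log2 fold change was -0.03 with an interval from -0.49 to 0.43 (adjusted p = 0.941, edgeR's quasi-likelihood test over 349 miRNAs). miR-21-3p changed by -0.15 ± 0.45 per cow, above 0 in 3 cows and below 0 in 3, with a fitted value of -0.13 and an interval from -0.53 to 0.26 (adjusted p = 0.696, the same edgeR test). Here 0% of the miRNAs passed, with and without the block, while 47 (13.5%) had an unadjusted p under 0.05 in edgeR without the block, 52 had one with it, and DESeq2 called 0. Without cow 9615, 46 miRNAs (12.8%) passed in MONT, neither arm among them, with log2 fold changes of 0.04 for miR-21-5p and -0.27 for miR-21-3p (adjusted p = 0.904 and 0.329, edgeR's quasi-likelihood test).

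The remaining comparisons use the same libraries as the first 2 and are not independent of them. The difference between the breeds in the change from CONT to REST was 0.14 on the log2 scale for miR-21-5p, with an interval from -0.44 to 0.72, and -0.02 for miR-21-3p, with an interval from -0.65 to 0.62 (adjusted p = 0.991 for both, edgeR's quasi-likelihood test of the interaction over 388 miRNAs). In this test 0% of the miRNAs passed, with and without the block, with 3 and 5 at an unadjusted p under 0.05, and DESeq2 called 0.

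Between the breeds in CONT, miR-21-5p was at 0.02 on the log2 scale, HOLS over MONT, with an interval from -0.39 to 0.43 (adjusted p = 0.963, the same edgeR fit of 22 libraries). miR-21-3p was at -0.14 with an interval from -0.59 to 0.31 (adjusted p = 0.756, edgeR). In REST the log2 differences were 0.16 for miR-21-5p, from -0.25 to 0.57, and -0.16 for miR-21-3p, from -0.61 to 0.29 (adjusted p = 0.575 and 0.636, edgeR). Of the 388 miRNAs tested, 7.47% passed between the breeds in CONT and 13.7% in REST, and neither arm was among them. An unadjusted p under 0.05 was found for 22.2% in CONT and 32.2% in REST. The paper describes the MONT libraries as lower in quality than those of HOLS, with more short reads and adapters. Breed and library quality therefore cannot be told apart. With a cow left out, the 29 miRNAs past the test in CONT became 0 to 31, 0 without cow 1155 and 2 without cow 1165, 8200 or 9615.

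**Figure D2:**
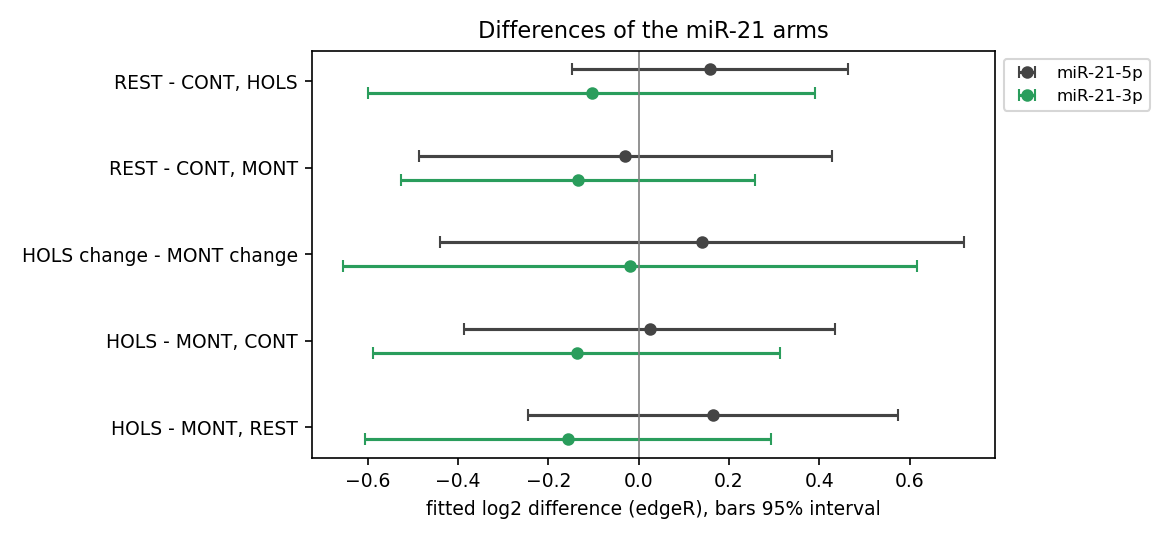
Fitted log2 difference (horizontal axis) of each miR-21 arm in 5 comparisons (rows), from edgeR, where points are estimates and bars are 95% intervals. All 10 intervals include 0, and the outermost bounds are -0.65 and 0.72.

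The ratio of the 2 arms within a library does not depend on how the library is scaled. Over the 22 libraries, miR-21-5p had 94.5 to 274 counts for each count of miR-21-3p, with a mean of 156 ± 45.0 (SD), and the 3p arm made up 0.363% to 1.05% of the counts of both arms. The exact binomial 95% interval of this share (Clopper-Pearson) had a mean reach to either side of 3.15% to 6.11% of the share, and it covers counting error only.

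In HOLS CONT the ratio of 5p to 3p counts was 132 in cow 1155, 230 in cow 1165, 148 in cow 2182, 119 in cow 8200 and 150 in cow 9195. In HOLS REST the same cows had 128, 213, 213, 140.1 and 274. The ratio rose in cows 2182, 8200 and 9195 and was slightly lower in cows 1155 and 1165. In MONT the lowest, median and highest ratios were 94.5, 122 and 199 in CONT and 109, 149 and 174 in REST. Cow 9615 held the highest MONT value in CONT and the lowest in REST, and in the other 5 cows the ratio was higher in REST.

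On the log2 scale the ratio was 7.24 ± 0.36 in HOLS CONT and 7.54 ± 0.46 in HOLS REST (SD, n = 5), a difference of 0.30, or 1.23-fold (p = 0.333, two-sided exact permutation, libraries unpaired). It was 7.02 ± 0.39 in MONT CONT and 7.17 ± 0.25 in MONT REST (SD, n = 6), a difference of 0.15, or 1.11-fold (p = 0.442, the same exact test). HOLS exceeded MONT by 0.22 in CONT and by 0.37 in REST (p = 0.348 and 0.130, exact), and the changes per cow differed between the breeds by 0.15 (p = 0.673, exact). Adjusted over these 5 tests, the p-values lay between 0.552 and 0.673. A paired exact test by sign flips of the change per cow gave p = 0.25 in HOLS, where 0.0625 is the smallest p that 5 cows allow, and p = 0.531 in MONT.

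Single cows moved 2 of these values past the threshold before adjustment. Without cow 9615 the MONT difference between periods was 0.35 (p = 0.0476, exact), higher in REST in 5 of 5 cows, and the paired exact test of those cows, added after the data were seen, gave 0.0625, its smallest p. Without cow 1155 the difference between the breeds in REST was 0.50 (p = 0.0381, exact). In cow 9615 the arms moved apart, with a log2 change of -0.41 for miR-21-5p and 0.45 for miR-21-3p, and its CONT and REST libraries did not deviate together across miRNAs (r = -0.20). The log2 ratio varied with the total counts of the library with r = 0.67 in the 12 MONT libraries, -0.35 in the 10 HOLS libraries and 0.08 over the 20 libraries without cow 9615, and the part of depth was not tested.

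**Figure D3:**
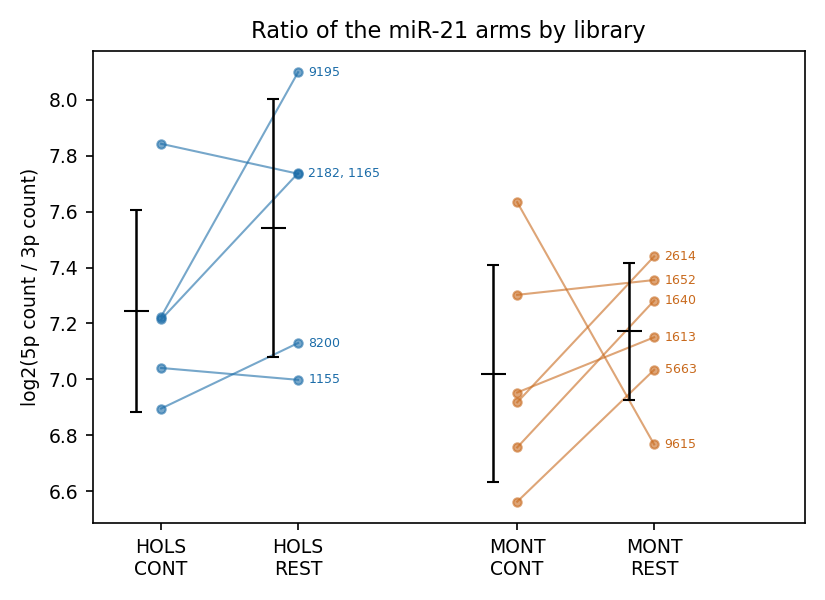
log2 of the ratio of miR-21-5p to miR-21-3p counts (vertical axis, not starting at 0) in each library, by breed and period, with a line per cow and the cow number beside its REST value; black bars are the group mean and SD. Lines rise in 3 of 5 HOLS cows and 5 of 6 MONT cows, and that of cow 9615 falls.

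The tables hold 24 miRNAs listed with both arms under the plain -5p and -3p names and with a mean of at least 10 counts per library for each arm. In 14 of them the 5p arm was the higher one and in 10 the 3p arm. With a pseudocount of 1, the mean log2 ratio of miR-21 was 7.23, at rank 3 toward the 5p arm after let-7a (10.20) and miR-30b (9.44). The nearest in value were miR-99a (7.14), miR-6119 (5.47) and miR-30b, and the other end was held by miR-22 (-9.75), where 3p is the abundant arm. The SD of the ratio of miR-21 within groups was 0.37, against a median of 0.38 over the 24 pairs. From CONT to REST the ratio changed by a mean of 0.30 in HOLS and 0.15 in MONT, where the medians over the 24 pairs were 0.01 and 0.12. A larger rise was seen for 6 of the other pairs in HOLS and 10 in MONT, among them let-7a with 0.82 and 0.77.

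**Figure D4:**
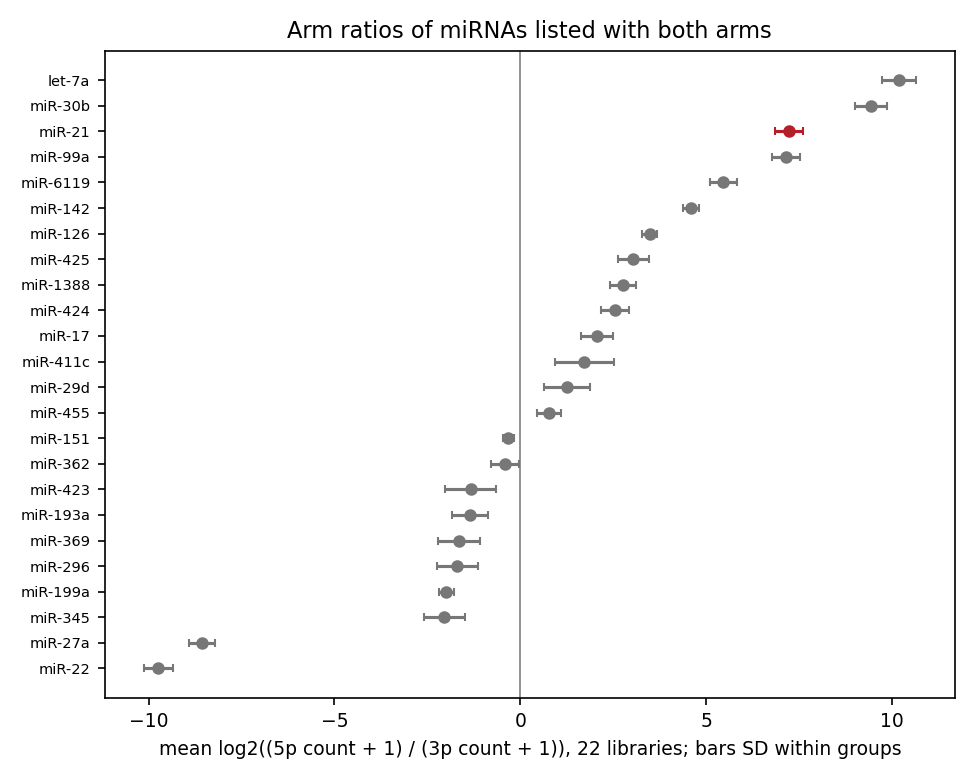
Mean log2 of (5p count + 1) over (3p count + 1) in 22 libraries (horizontal axis) for the 24 miRNAs listed with both arms (rows), with miR-21 in red; bars are the SD within groups. miR-21 stands below let-7a and miR-30b at 7.23, next to miR-99a at 7.14.

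The likeness of other miRNAs to each arm was measured as Pearson's r over the 22 libraries of log2 CPM after subtraction of the group mean, among 387 other miRNAs. It is a description, since the libraries come in pairs from 11 cows and share the normalization. The 5 miRNAs most like miR-21-5p were miR-6524 (r = 0.79), miR-146a (0.79), miR-99b (0.77), miR-142-3p (0.77) and miR-874 (0.72). For miR-21-3p they were miR-146a (r = 0.65), miR-34a (0.62), miR-142-3p (0.61), miR-142-5p (0.61) and miR-6524 (0.61). The median r was 0.01 for the 5p arm and 0.02 for the 3p arm. The arms of miR-142 are markers of blood cells, and miR-146a is known as a target of NF-kappaB that dampens inflammation. The other arm ranked lower: r between the arms was 0.46, which placed miR-21-3p 68 among the miRNAs most like miR-21-5p. In turn miR-21-5p was 15 among those most like miR-21-3p. Between the arms r was 0.31 in the 10 HOLS libraries and 0.60 in the 12 MONT libraries. The lowest r to miR-21-5p, named here after the values were seen, were those of miR-10172-3p (-0.87), which had a mean of 3.42 CPM, miR-200b (-0.75) and miR-375 (-0.71).

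Markers of cell types were summed by list, and their members were counted in the fits without pairing and, between periods, also with the cow as a block. That block raised the share of all miRNAs past the test in HOLS from 2.41% to 16.3%, and of edgeR's 2 fits to the 10 HOLS libraries list members passed in the blocked one alone. In MONT and for the interaction no list member passed with it, where 0% of all miRNAs did. The leukocyte list (miR-142-5p, miR-142-3p, miR-223, miR-150, miR-155 and miR-146a) varied with both arms, with r = 0.71 for miR-21-5p and 0.62 for miR-21-3p over the 22 libraries. Within HOLS these were 0.56 and 0.76, within MONT 0.78 and 0.54, and without cow 9615 they were 0.67 and 0.82. Most of the sum was miR-142-5p, with a mean of 2342 CPM and r = 0.67 with miR-21-5p and 0.61 with miR-21-3p. The less abundant miR-155, miR-150 and miR-223 had r = 0.69, 0.63 and 0.39 with miR-21-5p. With miR-21-3p they had 0.30, 0.36 and 0.40. Values for miR-142-3p and miR-146a are given above. In HOLS the summed level of the list ranged from 2005 to 3076 CPM before and from 1938 to 4438 CPM during restriction. In MONT the ranges were 2035 to 4609 and 2207 to 4313 CPM. All 6 markers were tested and 0 of 6 passed edgeR's test without the block in any of the 5 comparisons. Over all miRNAs 2.41% passed in HOLS, 0% in MONT and for the interaction, 7.47% between the breeds in CONT and 13.7% in REST. At such shares 0 of 6 says little about the markers. With the cow as a block, 3 of 6 were higher in HOLS REST than in HOLS CONT, miR-142-5p, miR-155 and miR-146a, against 16.3% of all miRNAs in either direction. At an unadjusted p under 0.05 there were 2 of 6 in HOLS, where 23.3% of all miRNAs were, 1 in MONT (13.5%) and 1 between the breeds in REST (32.2%). The 1 in MONT was miR-223, which was lower in REST, with a log2 fold change of -1.30 (adjusted p = 0.362, edgeR's quasi-likelihood test). DESeq2 called miR-155 higher in HOLS REST, where it called 7.22% of all miRNAs, and without cow 9615 miR-150 was lower in HOLS than in MONT in REST, where 26% passed. In HOLS, cow 1155 had the highest sum in both periods and the highest miR-21-3p in REST, and cow 2182 had the lowest sum in both periods. In HOLS CONT the highest miR-21-3p was in cow 8200 (196 CPM) and the lowest in cow 1165 (119 CPM). Their sums there were 2568 and 2563 CPM. The part of leukocytes in the level of either arm was not tested, and none of the 6 markers was at 0 in all libraries.

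**Figure D5:**
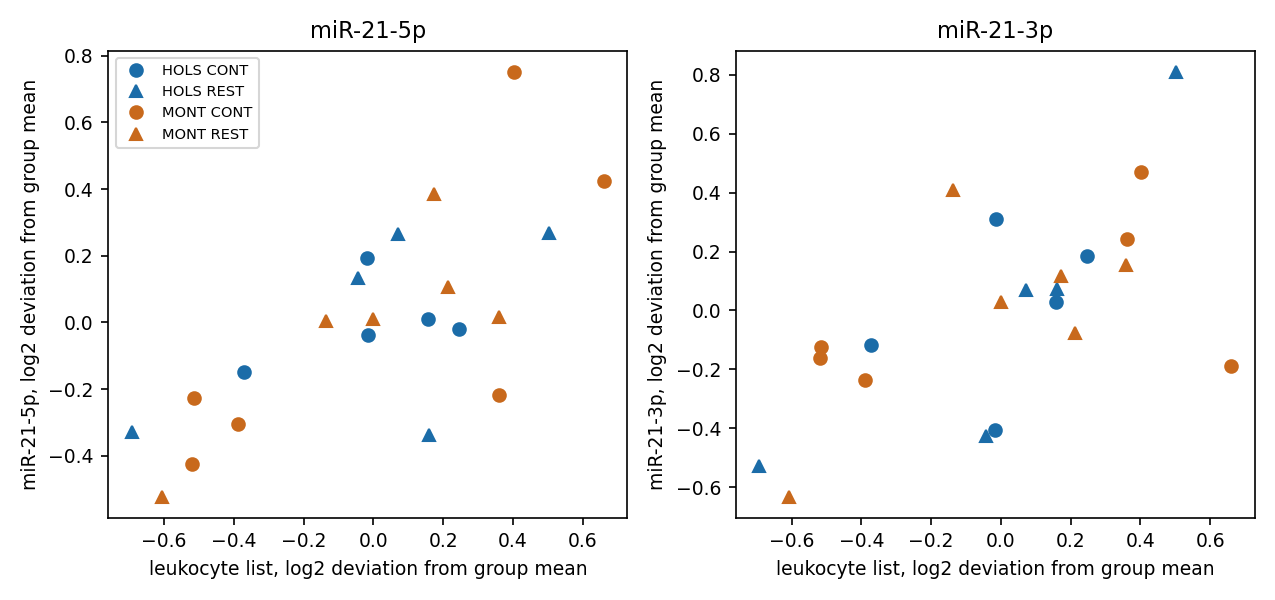
log2 deviation from the group mean of the summed CPM of the leukocyte list (horizontal axis) against that of miR-21-5p (left) and miR-21-3p (right) in 22 libraries; colours mark breeds, circles CONT and triangles REST. The points run from lower left to upper right in both panels (r = 0.71 and 0.62), and a MONT CONT library, that of cow 9615, lies at the far right.

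The epithelial list (miR-200a, miR-200b, miR-200c, miR-141, miR-429 and miR-205) was present in every group, with sums from 11735 to 55414 CPM. Its r was -0.28 with miR-21-5p, with opposite signs in HOLS (0.59) and MONT (-0.52), and 0.28 with miR-21-3p, with 0.47 in HOLS and 0.20 in MONT. Most of the sum was miR-141, with a mean of 23635 CPM and r = -0.19 with miR-21-5p. The less abundant miR-200a, miR-200b, miR-200c and miR-429 had r = -0.66, -0.75, -0.51 and -0.65 with miR-21-5p, and miR-205 had -0.16. The r of the summed epithelial list with the log2 ratio of the arms was -0.53 over all libraries, -0.15 in HOLS, -0.82 in MONT and -0.40 without cow 9615. Other lists, described below, also varied with the ratio. In MONT r was 0.73 for the stromal, -0.59 for the endothelial and -0.59 for the red blood cell list. Without cow 9615 these were -0.11, -0.16 and -0.21 over both breeds. In HOLS it was -0.64 for the smooth muscle list. In cow 9615 the sum rose from 17641 to 33471 CPM while the ratio of the arms was 199 in CONT and 109 in REST, and in the other MONT cows the sum was lower in REST and the ratio higher. The part of epithelial cells in the ratio was not tested. Between the breeds in REST, miR-141 was higher in HOLS and miR-205 lower, with log2 differences of 1.03 and -0.62 (adjusted p = 0.0494 and 0.0132, edgeR's quasi-likelihood test), where 13.7% of all miRNAs passed. DESeq2 and the fit without cow 9615 also called miR-200c higher in HOLS there, with 22.2% and 26% of all miRNAs past the threshold. In the other comparisons none of the 6 passed in edgeR without the block. Of all miRNAs 2.41% passed there in HOLS, 0% in MONT and for the interaction, and 7.47% between the breeds in CONT. An unadjusted p under 0.05 was found for 3 of the 6 in HOLS, 1 in MONT and 2 between the breeds in CONT. The shares of all miRNAs were 23.3%, 13.5% and 22.2%. With the cow as a block, miR-200b, miR-200c and miR-429 were lower in HOLS REST than in HOLS CONT, where 16.3% of all miRNAs passed in either direction. DESeq2 called miR-200b and miR-200c lower there, where it called 7.22% of all. Without cow 9615, edgeR called these 2 lower in MONT REST, where 12.8% of all passed.

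For the stromal list (miR-199a-3p, miR-199a-5p, miR-199b and miR-214), r was 0.42 with miR-21-5p and 0.04 with miR-21-3p. With the 5p arm it was -0.46 in HOLS and 0.60 in MONT, and with the 3p arm it was 0.40 without cow 9615. In REST 3 of its 4 members were lower in HOLS than in MONT, against 13.7% of all miRNAs in either direction, with log2 differences from -1.19 for miR-214 to -0.99 for miR-199a-3p, the other being miR-199a-5p (adjusted p from 0.0132 to 0.0421, edgeR's quasi-likelihood test). DESeq2 and the fit without cow 9615 called 4 of 4 lower there, with 22.2% and 26% of all miRNAs past the threshold. In the other comparisons 0 of 4 passed in edgeR, with or without the block, or in DESeq2. Of all miRNAs at most 16.3% passed in these fits, in HOLS with the block. At an unadjusted p under 0.05 were 1 in HOLS, 3 in MONT and 2 between the breeds in CONT. The shares of all miRNAs were 23.3%, 13.5% and 22.2%. Without cow 9615, 4 of 4 were higher in MONT REST than in MONT CONT, where 12.8% of all miRNAs passed in either direction, and the log2 fold change of miR-21-5p was 0.04. The smooth muscle list (miR-143 and miR-145) had r = 0.45 and 0.41 with the 5p and the 3p arm, with -0.13 in HOLS and 0.59 in MONT for the 5p arm and 0.56 and 0.41 for the 3p arm. Of its members 0 of 2 passed in edgeR without the block, where 0% to 13.7% of all miRNAs did by comparison. With the block 2 of 2 were higher in HOLS REST, where 16.3% of all miRNAs passed. miR-143 had an unadjusted p under 0.05 in HOLS and between the breeds in CONT, where 23.3% and 22.2% of all miRNAs did. DESeq2 called it higher in HOLS REST and lower in HOLS than in MONT in CONT, where it called 7.22% and 8.25% of all. For the endothelial list (the arms of miR-126) r was -0.04 and 0.24, with 0.76 in HOLS and -0.32 in MONT for the 5p arm. In REST miR-126-3p was higher in HOLS than in MONT by 0.49 on the log2 scale (adjusted p = 0.0248, edgeR), where 13.7% of all miRNAs passed. Without cow 9615 both arms of miR-126 were, where 26% of all passed. In HOLS both had an unadjusted p under 0.05 between the periods, against 23.3% of all miRNAs. With the block miR-126-3p was higher in HOLS REST, where 16.3% of all passed. The red blood cell list (miR-451, miR-144 and miR-486) had r = -0.37 and 0.01, and the skeletal muscle list had r = -0.05 and -0.14. With the 5p arm the 2 lists had 0.19 and -0.44 in HOLS and -0.47 and 0.14 in MONT. Of these 2 lists no member passed in DESeq2 or in edgeR without the block. These fits passed 0% to 22.2% and 0% to 13.7% of all miRNAs, by comparison. With the block miR-486 was higher in HOLS REST, where 16.3% of all miRNAs passed. In the red blood cell list 1 member had an unadjusted p under 0.05 in HOLS and 1 in MONT, against 23.3% and 13.5% of all miRNAs. From the muscle list miR-1 and miR-133a were listed, with means of 4.57 and 82.9 CPM.

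A list of 6 miRNAs was taken as inducible by NF-kappaB or STAT3, as miR-21 is: miR-146a, miR-146b, miR-155, miR-132, miR-181b and miR-223. Whether these factors drive each member in this tissue was not tested. From CONT to REST the list had a median log2 fold change of 0.43 in HOLS and 0.21 in MONT. Over all miRNAs tested the medians were 0.02 and -0.01. Of the list, 0 of 6 passed edgeR's test without the block in either breed, where 2.41% (HOLS) and 0% (MONT) of all miRNAs did. With the cow as a block, 4 of 6 were higher in HOLS REST, miR-146a, miR-146b, miR-155 and miR-181b, against 16.3% of all miRNAs in either direction, while neither miR-21 arm passed. At an unadjusted p under 0.05 there were 3 of 6 in HOLS and 1 in MONT, against 23.3% and 13.5% of all miRNAs. The 1 in MONT was miR-223, which was lower in REST with a log2 fold change of -1.30 (adjusted p = 0.362, edgeR's quasi-likelihood test). DESeq2 called miR-155 and miR-181b higher in HOLS REST, where it called 7.22% of all. The highest fitted values in HOLS, without the block, were 0.74 for miR-146b and 0.55 for miR-155 (adjusted p = 0.212 and 0.108, edgeR's quasi-likelihood test), and the value of miR-21-5p was 0.16. The lowest of the list there were -0.0055 for miR-223 and 0.11 for miR-132. Between the breeds in CONT, miR-146b was lower in HOLS by a log2 difference of -1.57 (adjusted p = 0.0476, edgeR), and 1 of 6 passed, where 7.47% of all miRNAs did. Without cow 9615, 0 of 6 passed, where 0.515% of all miRNAs did. Members miR-146a, miR-155 and miR-223 of this list are also in the leukocyte list. The summed level of the list varied with miR-21-5p with r = 0.64 and with miR-21-3p with r = 0.43. These were 0.21 and 0.68 in HOLS, 0.73 and 0.41 in MONT, and 0.59 and 0.71 without cow 9615. The members were not alike: miR-146b, with a mean of 1094 CPM, had r = 0.60 with miR-21-5p and 0.50 with miR-21-3p. For miR-181b, with a mean of 663 CPM, these were -0.02 and 0.07, and for miR-132 0.45 and 0.15. Values for miR-146a, miR-155 and miR-223 are given above.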

How the data were processed

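Small RNA of 22 mammary biopsies was sequenced from TruSeq libraries. The authors trimmed adapters, filtered reads by size, annotated them with ncPRO-seq and aligned them with miRDeep2 to btau5.0.1 and miRBase, and deposited the counts as whole numbers without normalization. The submitters' processing notes name bcl2fastq 2.17.1.14 and DESeq2 1.18.1. The deposited normalized counts, means, fold changes and p-values were not used. How reads of similar miRNAs were shared is not given in the sources used here, and counts of different miRNAs also depend on ligation and PCR.

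Counts of both breeds were joined by name. Differences were tested with edgeR 4.0.16 (R 4.3.3): TMM, filterByExpr (minimum count 10), glmQLFit and glmQLFTest, and Benjamini-Hochberg adjustment over all miRNAs tested, with a threshold of 0.05. The periods were compared within each breed, and the interaction and the breeds over 4 groups. Intervals are estimate ± t quantile times standard error. Ratios of the arms were tested by exact permutation. The cow number in the labels pairs the libraries. Deviations of the libraries of a cow correlated with r from 0.11 to 0.70 in 10 cows and -0.20 in cow 9615, and the paper's methods name no block for the miRNA counts, so a block for the cow was tried as an alternative. Others were DESeq2 1.42.0, other scalings, no filter and each cow left out. The fits without the block were tested on simulated libraries without pairing by cow, with 200 miRNAs changed by 1 on the log2 scale. Of the changed miRNAs tested, 82.0% were recovered in HOLS, 83.1% in MONT and 46% for the interaction. Between the breeds 82% were recovered in CONT and 83% in REST. Smaller changes were not simulated.

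The arms, lists and rules were chosen with earlier results of these data known. Named beside the arms are the 5 miRNAs most like each arm, their neighbours in level, arm pairs at the ends and nearest to miR-21, and members of the lists. No sequences were used here, so relatives by seed were not searched; miR-590, looked for by name, has 0 rows.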

Additional observations from a re-analysis of the deposited data

Results flagged for a closer look

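In HOLS CONT, the ratio of 5p to 3p counts in cow 1165 was 230, and it was set apart from the other 4 cows, which lay between 119 and 150, by 0.724 of the range of the group against a critical value of 0.71 (Dixon). The REST library of the same cow had 213. The level of each arm and the ratio were examined this way in the same 4 groups of libraries. Of these 12 sets of values, which are not independent, 1 held such a value, where chance gives about 0.6.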

How the results depend on the processing

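Neither arm passed the threshold in any comparison under DESeq2, DESeq2 size factors, library size only, totals without miR-143, no filter or with a cow left out, nor between periods or in the interaction with the replicate block, and values near 0 changed sign. The log2 fold change of miR-21-5p in HOLS was -0.031 with library size only, which moved the median of all miRNAs by -0.17. In MONT it was 0.01 both without miR-143 (0.0072) and with the cow as a replicate block (0.0085). The interaction of miR-21-3p was 0.03 with DESeq2 (0.0322) and its size factors (0.0321), 0.0080 without miR-143 and 0.018 without a filter. The difference of miR-21-5p between the breeds in CONT was -0.0030 with DESeq2 and with its size factors. The cause was not tested. With the replicate block, miR-21-5p and miR-21-3p changed by 0.14 and -0.16 in HOLS, and the block changed no call of either arm where it was run, while the miRNAs past the threshold in HOLS went from 9 to 61. DESeq2 gave 27 there, library size only 20 and no filter 5, and 3 to 14 passed with a cow left out. Between the breeds in CONT 29 passed, against 3 with library size only and 3 without a filter, and in REST 53 against 86 with DESeq2 and 16 (without cow 1165 or 1652) to 101 (without cow 9615) with a cow left out.

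With each cow left out, the log2 values ranged for miR-21-5p from 0.07 to 0.22 in HOLS, from -0.14 to 0.079 in MONT, from 0.0044 to 0.32 for the interaction, from -0.087 to 0.17 between the breeds in CONT and from 0.07 to 0.32 in REST. For miR-21-3p they ranged from -0.33 to -0.02, -0.27 to -0.02, -0.13 to 0.17, -0.25 to -0.07 and -0.36 to -0.0090 in the same order. For the ratio of the arms they were 0.15 to 0.40, 0.076 to 0.35, -0.057 to 0.25, 0.07 to 0.35 and 0.23 to 0.50. Of the 5 miRNAs most like miR-21-5p, 3 were the same with levels in place of deviations and 3 with Spearman's rho.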
